A study of Mus musculus with 6 samples.

Results

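The genes described here encode 9 protein kinases that relay signals from cell surface receptors: the Src family kinases Src, Fyn, Yes1 and Lyn, the protein kinase C genes Prkca and Prkcd, the MAP kinases Mapk3 (ERK1) and Mapk14 (p38α), and Map2k1 (MEK1). They were chosen by name and matched by symbol to the mouse annotation. All 9 were found among the 42256 genes of the count table. Their RNA was counted in PDGFRa+ cells, fibroblast-like cells that were released from heart scar with collagenase and sorted, in mice of a Mixed 129S2/C57Bl6 strain, with 1 library taken as 1 animal. The 4 Htr2b_cKO libraries carried the genotype Htr2bfl/flPostnMCM/+, a floxed serotonin receptor gene together with a Cre recombinase that tamoxifen activates and that sits in 1 Postn allele. The 2 control libraries carried the genotype Htr2bfl/fl and no Cre. Mice of both groups were fed tamoxifen, starting 1 week ahead of the experiment and without a break, and scars were taken 7 days after injury. The labels give no ages. The Cre is driven by Postn, so it acts in cells that switch on periostin and not in all sorted cells. The controls lack the Cre and its Postn allele, so what these do by themselves cannot be told apart from a loss of Htr2b.

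The serotonin receptor encoded by Htr2b couples to Gq proteins. Gq activates phospholipase C, whose products activate calcium-dependent and calcium-independent protein kinase C isoforms, and the receptor is also known to signal through Src kinases to the RAS, RAF, MEK and ERK chain. Src family kinases are held inactive by phosphorylation of a tail tyrosine by Csk and act on adhesion proteins such as the focal adhesion kinase. ERK and p38 are switched on by paired phosphorylation in the activation loop. In cardiac fibroblasts these kinases are known for their part in migration, proliferation and the turn to myofibroblasts. Their activity is set by phosphorylation, which RNA counts do not measure.

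Library totals were 28533427 to 34830718 estimated counts in Htr2b_cKO and 28565473 and 37392496 in control libraries. Htr2b itself had 0, 3, 29 and 4 counts in Htr2b_cKO libraries 1 to 4, against 13 and 7 counts in the control libraries. The library labelled Htr2b_cKO 3 lay above both controls. The fibroblast marker Col1a1 had 17300 CPM or more in all 6 libraries, where CPM is the count relative to a library size scaled by TMM. Sex was inferred from the RNA: a library with under 100 CPM of Xist was counted as male. That held only for the library labelled Htr2b_cKO 4. Macrophage transcripts differed widely between libraries within each group. The summed level of 12 macrophage markers was 983, 2490, 4660 and 545 CPM in Htr2b_cKO libraries 1 to 4 and 2970 and 1020 CPM in control libraries 1 and 2. Of the other marker lists, that of B and plasma cells summed to 213 to 1280 CPM in Htr2b_cKO and to 1520 and 1570 CPM in control libraries. That of T and NK cells summed to 0.321 to 2.11 CPM in Htr2b_cKO and to 3.58 and 4.61 CPM in control libraries. This last sum is near the floor, and only 4 of its 8 genes passed a filter on low counts. Among them, mean CPM in Htr2b_cKO and control libraries was 0.448 and 1.91 for Cd2, but 0.293 and 0.291 for Cd3e. The part of B, plasma, T and NK cells in the results was not tested. In such bulk samples, fewer cells of a type and less RNA per cell cannot be told apart.

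Each of the 9 kinase genes was measured with at least 377 counts in each library, and all 9 passed the filter on low counts. None was called different between the genotypes at an adjusted p under 0.05 by edgeR's quasi-likelihood test, which called 0.0189% of 15840 tested genes. DESeq2, which called 0.647% of the genes it tested, and limma voom, which called 0.0126%, also called 0 of the 9. Of the 9, 1 gene had an unadjusted p under 0.05 in edgeR, against 9.59% of all tested genes. The Htr2b_cKO libraries lay wholly above both controls for Yes1 and Prkca and wholly below them for Mapk3, so 3 of 9 genes did not overlap between the groups. Over all tested genes 19.6% did not overlap. The log2 fold changes of the 9, Htr2b_cKO minus control, ran from -0.28 to 0.82 with a median of 0.01, and the median over all tested genes was 0. The plot of CPM by library shows how small most differences were beside the spread within a group.

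**Figure D1:**
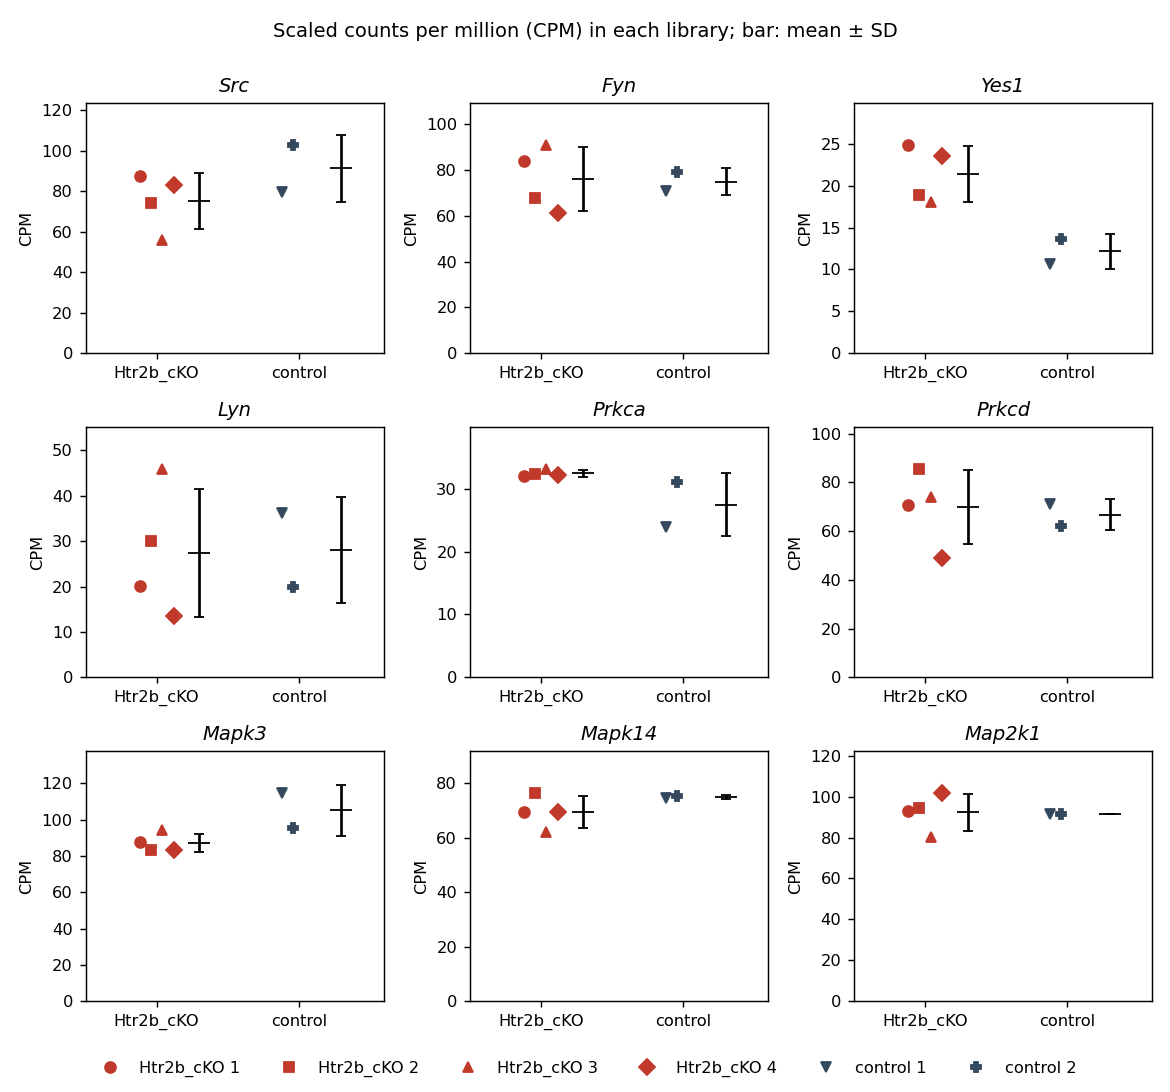
Scaled CPM (y axis) of each of the 9 kinase genes in every library, with Htr2b_cKO libraries in red and control libraries in dark blue; the bar is the mean ± SD of the group. For Yes1 all 4 Htr2b_cKO libraries (18.1 to 24.9 CPM) sit above both controls (10.7 and 13.6 CPM), while both controls of Lyn lie inside the range of its Htr2b_cKO libraries.

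Levels between genes were compared per length, as CPM per kilobase of merged exons. Mapk3 had the highest level, with a median of 40.3 CPM per kb over the 6 libraries (36.9 to 50.9), and Map2k1 followed with 27.2 (23.7 to 30). These leading genes did not overlap each other or the next gene. Src (median 18.6 CPM per kb), Fyn (17.2) and Mapk14 (16.4) had overlapping ranges, and Fyn exceeded Mapk14 in only 3 of the 6 libraries. Prkcd had a median of 12.8 CPM per kb. The lowest levels were those of Lyn (6.18), Prkca (3.57) and Yes1 (2.46), each of which overlapped its neighbour in this order. With the length of the longest transcript in place of merged exons, Mapk3 and Map2k1 kept the first and second place, Prkcd moved to rank 3, and Yes1 and Prkca changed places. The genes also differed in how far they varied between libraries: the highest library was 3.42 times the lowest for Lyn, 2.34 times for Yes1 and 1.84 times for Src, but 1.23 times for Mapk14 and 1.27 times for Map2k1.

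Yes1, a broadly expressed Src family kinase, had the largest difference among the 9. It had 24.9, 18.9, 18.1 and 23.6 CPM in Htr2b_cKO libraries 1 to 4, against 10.7 and 13.6 CPM in the control libraries. Every Htr2b_cKO library was above both controls, and the lowest of them, the library labelled Htr2b_cKO 3, was still 18.1 CPM. The means were 21.4 ± 3.4 CPM in Htr2b_cKO and 12.1 ± 2.1 CPM in control libraries (SD, n = 4 and 2), a fold of 1.76. On the log2 scale the difference was 0.82 (SE 0.21, with 2 SEs on either side reaching from 0.41 to 1.23). The unadjusted p was 0.00353 and edgeR's adjusted p over all genes 0.337, so Yes1 was not called. Without both Htr2b_cKO 3 and Htr2b_cKO 4 it was 0.86. When exon length and GC content were given to the fit as offsets it was 0.47 (SE 0.19, adjusted p = 0.896). Yes1 (ENSMUSG00000014932) lies on the plus strand of chromosome 5, from 32611171 to 32687057 in mm10, and shares exon positions with Gm10461 on the opposite strand. Lyn and Prkca also share exon positions with a gene on the opposite strand. The library kit was directional, but the use of strand in the counting is not given in the sources used here. Whether reads of such overlapping genes were kept apart is therefore not known.

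The start of Yes1 is shown beside that of Fyn, the Src family gene with almost the same mean in both genotypes, so that the least and the most different genes of the family can be compared. Both stretches are the bases before the RefSeq start in GRCm38.p6, 5′ to 3′ on the plus strand, and that of Fyn is shortened to leave out an annotated exon. The 2 stretches are not placed alike. In the gene annotation Fyn begins at 39368855, so its stretch lies inside the annotated gene. The Yes1 stretch ends just before its gene, which begins at 32611171. Capitals mark the GC box (GGGCGG on either strand), a motif bound by Sp1-type factors.
Yes1, chr5:32610921-32611170: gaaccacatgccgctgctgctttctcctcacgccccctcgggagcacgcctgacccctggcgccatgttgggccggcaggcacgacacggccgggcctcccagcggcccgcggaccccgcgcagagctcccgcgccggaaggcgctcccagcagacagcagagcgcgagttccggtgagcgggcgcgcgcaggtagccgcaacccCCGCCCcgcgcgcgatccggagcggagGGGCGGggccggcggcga
Fyn, chr10:39369549-39369763: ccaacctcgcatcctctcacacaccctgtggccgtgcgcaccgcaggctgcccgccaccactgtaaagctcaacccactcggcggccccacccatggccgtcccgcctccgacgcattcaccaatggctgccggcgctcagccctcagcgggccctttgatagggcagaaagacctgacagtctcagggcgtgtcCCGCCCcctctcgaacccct

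The Yes1 stretch of 250 bases was 77.2% GC with 37 CpG pairs and 2 GC boxes, and the Fyn stretch of 215 bases was 67.4% GC with 17 CpG pairs, 1 GC box and 1 CCAAT box (CCAAT on either strand). Neither held the TATA box (letters TATAAA), the AP-1 motif (letters TGANTCA), the cyclic AMP response element (letters TGACGTCA) or a CArG box, the site of serum response factor. All motifs were searched on both strands. Of 32841 RefSeq windows of 250 bases, 32.7% held a GC box, 33.9% a CCAAT box, 12.4% a TATA box, 6.8% the AP-1 motif, 1.5% the cyclic AMP response element and 1.5% a CArG box. RefSeq windows were found for 7 of the 9 genes, with Lyn and Mapk3 unmatched. A match is a description of letters and not of a bound site. The GC-rich start of Yes1 stands in contrast to its transcript, which at 41.1% GC was the most AT-rich of the 9 genes. A GC-rich start was not particular to Yes1: the windows of Src and Prkca were 82.8% and 76.8% GC. The second windows of Prkcd (50.8%) and Mapk14 (48.4%) lay below the median of 52.4% over all RefSeq windows.

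Src, the founding member of the family, had 87.5, 74.0, 56.0 and 82.9 CPM in the Htr2b_cKO libraries and 79.7 and 103 CPM in the control libraries. The groups overlapped, and the lowest value was that of the library labelled Htr2b_cKO 3. The means were 75.1 ± 13.9 CPM in Htr2b_cKO and 91.2 ± 16.3 CPM in control libraries (log2 fold change -0.28, SE 0.20, edgeR adjusted p = 0.682). It was -0.45 without control 1, -0.08 without control 2, -0.15 without the library labelled Htr2b_cKO 3 and -0.17 without both Htr2b_cKO 3 and Htr2b_cKO 4. Fyn, which acts with Src at focal adhesions, had 83.9, 67.6, 91.0 and 61.3 CPM in Htr2b_cKO libraries, against 70.7 and 79.1 CPM in control libraries. Both controls lay inside the range of the Htr2b_cKO libraries, and the log2 fold change was 0.02 (SE 0.18, adjusted p = 0.981). Its 2 SE interval from -0.34 to 0.38 leaves out a doubling or a halving of Fyn at the level of the group means.

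Lyn, a Src family kinase best known from blood cells, varied more within each genotype, relative to its mean, than any other of the 9 genes. It had 20.2, 30.1, 46 and 13.5 CPM in the Htr2b_cKO libraries, against 36.3 and 19.8 CPM in the control libraries. The group means were 27.5 ± 14.2 CPM in Htr2b_cKO and 28.1 ± 11.7 CPM in control libraries (log2 fold change -0.04, SE 0.51, adjusted p = 0.986). Its 2 SE interval from -1.05 to 0.98 was the widest of the 9. The order of the 6 libraries by Lyn was exactly their order by macrophage marker level (mean log2 CPM of the 12 markers, 4.54 in Htr2b_cKO 4 and 7.58 in the library labelled Htr2b_cKO 3). Pearson's r was 0.99 (exact permutation p = 0.00139, 0.0167 after Benjamini-Hochberg adjustment) and Spearman's rho was 1 (exact permutation p = 0.00278, 0.0334 adjusted) over 6 libraries, two-sided. A total of 12 such relations were computed and adjusted together, those of the 9 kinase genes among them. Leaving out the 2 libraries farthest from the median marker level, Htr2b_cKO 4 and Htr2b_cKO 3, r was 0.99 for Lyn. With the macrophage marker level as a covariate the SE of the Lyn fold change was 0.14 and the log2 fold change -0.04 (adjusted p = 0.921).

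For the other 8 kinase genes the relation to the macrophage markers did not pass after adjustment. Prkcd had r = 0.83 (exact permutation p = 0.0375, adjusted 0.15) and Src r = -0.70 (exact permutation p = 0.114, adjusted 0.228). Of the 9940 genes with a mean log2 CPM of at least 3, those whose log2 CPM followed Lyn most closely over the 6 libraries were Atp13a2, a lysosomal transport ATPase, and Fcgr3, an Fc receptor of myeloid cells, both at r = 0.999. For Yes1 they were Atrx, a chromatin remodeller, at 0.999 and Zbtb41 at 0.996. The best of so many genes over 6 libraries is high by selection, so these are descriptions. Lyn (ENSMUSG00000042228, chromosome 4 from 3678115 to 3813122) shares 695 of its 4065 stretches of 31 bases with the gene Gm11787, which had 23 counts in all 6 libraries together, against 5489 for Lyn.

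**Figure D2:**
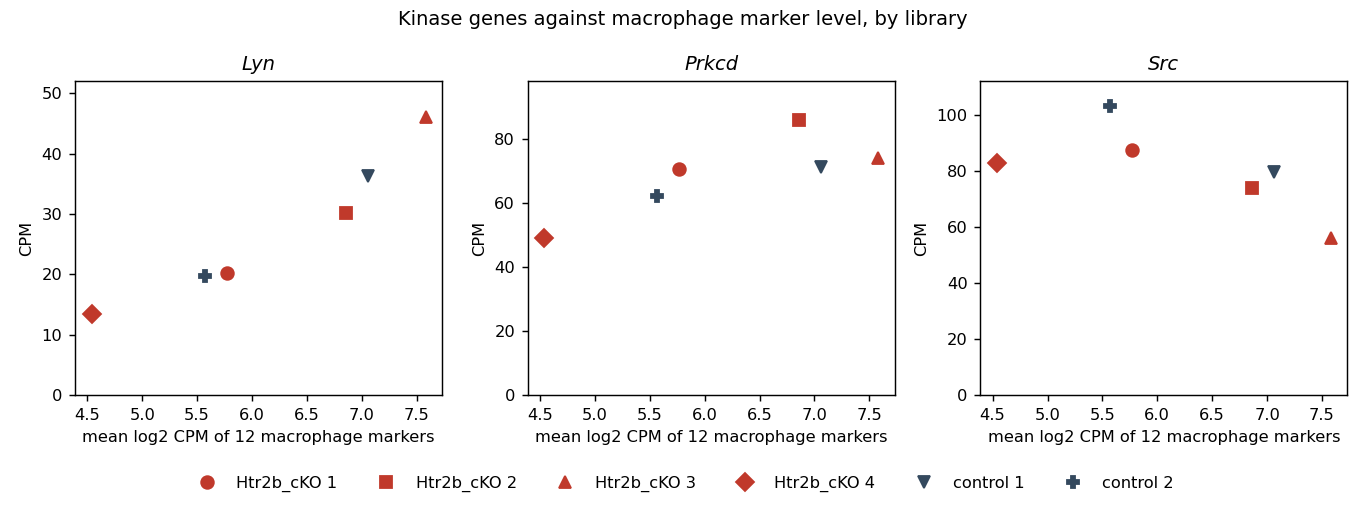
CPM of Lyn, Prkcd and Src (y axes) against the mean log2 CPM of 12 macrophage markers (x axis), 1 point per library, with Htr2b_cKO in red and control in dark blue. Lyn was higher where the markers were higher across both genotypes, with 13.5 CPM in Htr2b_cKO 4 at the low end and 46 CPM in the library labelled Htr2b_cKO 3 at the high end, and Src was lowest in that last library.

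Within the Src family, the make-up of the sorted cells was mostly Src and Fyn. Of the summed CPM per kb of the 4 genes, Src made up 27.0% to 48.6% and Fyn 35.6% to 44.0% over the 6 libraries. Lyn made up 10.4%, 17.5%, 23.9% and 8.37% in Htr2b_cKO libraries, against 19.9% and 10.1% in control libraries. Yes1 made up 6.99%, 5.94%, 5.09% and 7.96% in Htr2b_cKO libraries, against 3.17% and 3.76% in control libraries, with no overlap. The log2 ratio of Yes1 to the other 3 genes was -3.87 ± 0.30 in Htr2b_cKO and -4.80 ± 0.18 in control libraries (SD, n = 4 and 2), a difference of 0.94. The exact permutation p was 0.0667, two-sided, the smallest that 15 splits allow, and 0.533 after adjustment over the 8 ratios computed. These shares and ratios were not corrected for GC content, which was 41.1% for Yes1, 49.3% for Fyn and 59.3% for Src. With the offsets for GC content and exon length, the log2 fold change of Yes1 itself was 0.47 in place of 0.82. The ratios of Src (difference -0.34), Fyn (0.14) and Lyn (-0.03) to the rest of the family had exact permutation p values of 0.533, 0.60 and 1. Leaving out each library in turn, the Src difference ranged from -0.57 without control 1 to -0.07 without the library labelled Htr2b_cKO 3, and that of Fyn from 0.04 to 0.21.

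Prkca, a calcium-dependent protein kinase C, had 32.0, 32.3, 33.2 and 32.2 CPM in the Htr2b_cKO libraries, against 23.9 and 31 CPM in the control libraries. The 4 Htr2b_cKO libraries were nearly equal and lay above both controls, though only narrowly above control 2. The estimate was 0.24 on the log2 scale (SE 0.15, adjusted p = 0.639 in edgeR), and it was 0.06 without control 1 and 0.45 without control 2. The authors' deposited normalized signal gave another picture. It was 806.5, 1301, 785.1 and 643.8 in Htr2b_cKO libraries 1 to 4, against 1169 and 1452 in the control libraries, so that 3 of 4 Htr2b_cKO libraries lay below both controls. The factor by which the authors divided the Prkca count, relative to the median factor of its library, was 1.27, 0.801, 1.33 and 1.62 in Htr2b_cKO and 0.657 and 0.687 in control libraries. The mean difference in the log2 factor was 0.86 for Prkca, and 22 of 11933 genes whose counts averaged at least 100 (0.184%) had one as large in either direction. For the other 8 kinase genes it lay between -0.11 and -0.01. With these factors as offsets the log2 fold change of Prkca was -0.57 (SE 0.27, adjusted p = 0.659). How the authors' factors were made for a gene is not given in the sources used here, and what sets the Prkca factor was not tested.

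**Figure D3:**
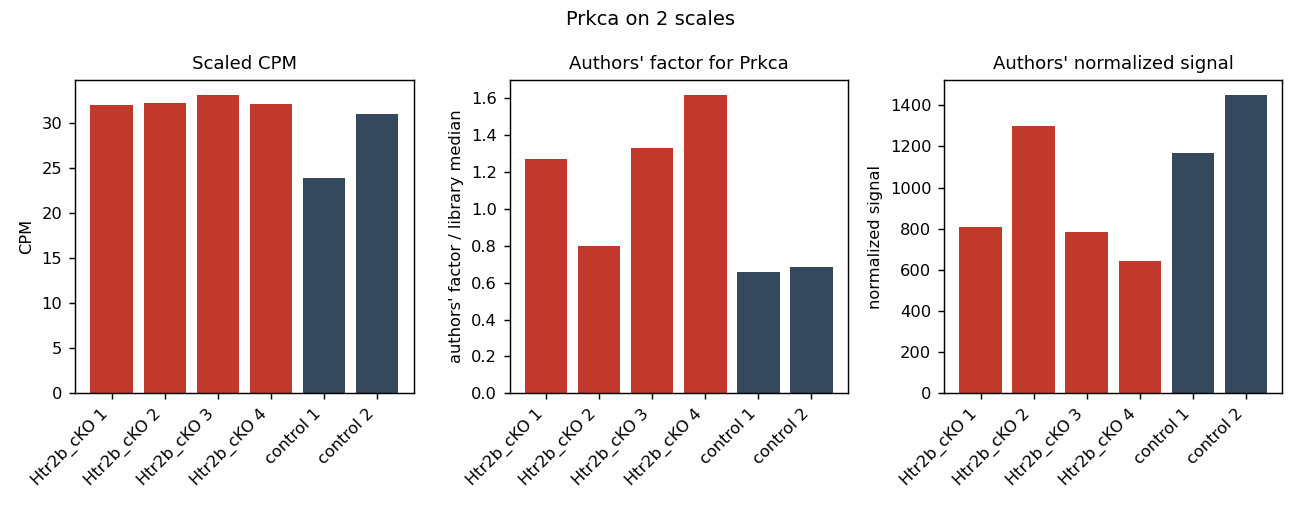
Prkca in each library as scaled CPM (left), as the authors' factor relative to the median factor of the library (middle) and as the authors' normalized signal (right), Htr2b_cKO in red and control in dark blue. The factor is 0.801 or more in each Htr2b_cKO library and 0.687 or less in both controls, and the order of the groups differs between the left and the right panel.

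Prkcd, a protein kinase C that needs diacylglycerol and no calcium, had 70.7, 85.7, 74.0 and 49.1 CPM in Htr2b_cKO libraries, against 71.3 and 62.2 CPM in control libraries. Both controls lay inside the Htr2b_cKO range, with Htr2b_cKO 4, which also had the lowest macrophage marker level, at the low end. The log2 fold change was 0.06 (SE 0.21, adjusted p = 0.945). The log2 ratio of Prkca to Prkcd per kb was -1.78 ± 0.34 in Htr2b_cKO and -1.99 ± 0.41 in control libraries, a difference of 0.21 (exact permutation p = 0.467). Computed from the authors' normalized signal this difference was -0.75 (exact permutation p = 0.0667, the smallest possible). Of the 10 other protein kinase C and D genes, all tested, 0 were called and 5 were above 0. Prkce, another isoform of the calcium-independent kind, had 18.8 ± 4.2 CPM in Htr2b_cKO and 18.4 ± 2.3 CPM in control libraries, and the smallest p belonged to Prkd3 (log2 fold change 0.27, adjusted p = 0.611).

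Map2k1, the kinase that activates ERK, had 93.1, 94.5, 80.2 and 102 CPM in Htr2b_cKO libraries, against 91.6 and 91.7 CPM in control libraries. The means were 92.4 ± 9.0 CPM in Htr2b_cKO and 91.7 ± 0.1 CPM in control libraries, with a log2 fold change of 0.01 and a 2 SE interval from -0.26 to 0.28 (adjusted p = 0.983). Its close relative Map2k2 had 85.6 ± 7.9 CPM in Htr2b_cKO and 100 ± 7 CPM in control libraries (log2 fold change -0.23, adjusted p = 0.629). The log2 ratio of Map2k1 to Map2k2 per kb was 0.85 ± 0.23 in Htr2b_cKO and 0.61 ± 0.11 in control libraries (difference 0.24, exact permutation p = 0.267). These sister genes share 34 stretches of 31 bases out of 3385 in Map2k1.

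Mapk3, which encodes ERK1, had 88.0, 83.2, 94.1 and 83.6 CPM in Htr2b_cKO libraries, against 115 and 95.3 CPM in control libraries. All 4 Htr2b_cKO libraries lay below both controls; the highest of them, the library labelled Htr2b_cKO 3, was close to control 2. Of all tested genes, 8.98% had the Htr2b_cKO libraries wholly below the controls. The means were 87.2 ± 5.1 CPM in Htr2b_cKO and 105 ± 14 CPM in control libraries (log2 fold change -0.27, SE 0.13, unadjusted p = 0.0771, adjusted p = 0.575). Leaving out each library in turn, the estimate ranged from -0.39 without control 2 to -0.13 without control 1. It was -0.06 with the offsets for GC content and exon length and -0.27 with the authors' factors as offsets.

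Mapk14, the main p38 isoform, had 69.4, 76.5, 62.0 and 69.4 CPM in Htr2b_cKO libraries, against 74.4 and 75.4 CPM in control libraries. The groups overlapped through Htr2b_cKO 2, and the log2 fold change was -0.11 (SE 0.13, adjusted p = 0.815). It was -0.05 without the library labelled Htr2b_cKO 3 and -0.04 without both Htr2b_cKO 3 and Htr2b_cKO 4. Summed per kb, Mapk14 exceeded the other p38 genes Mapk11, Mapk12 and Mapk13 together in each library, with a log2 ratio of 1.2 ± 0.15 in Htr2b_cKO and 1.19 ± 0.28 in control libraries (exact permutation p = 0.80). The differences under 3 ways of scaling the counts are shown in the plot of fold changes, where the direction differed for Prkca (-0.57 with the authors' factors) and Mapk14 (0.02 with the offsets for GC content and length).

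**Figure D4:**
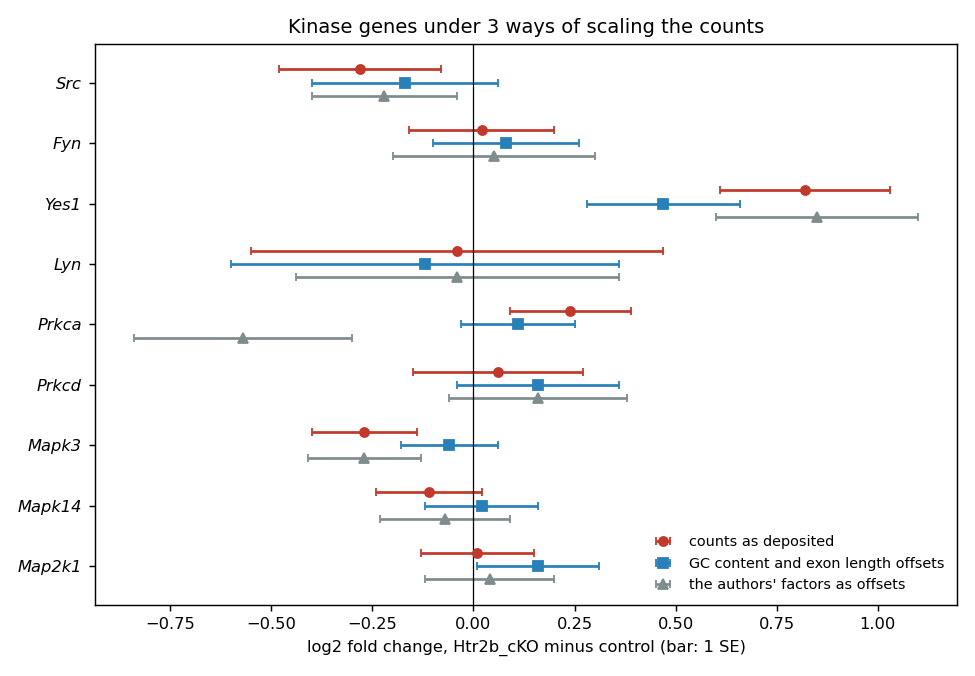
Log2 fold change (x axis, Htr2b_cKO minus control, bars 1 SE) of the 9 kinase genes from the counts as deposited (red), with offsets for GC content and exon length (blue) and with the authors' factors as offsets (grey). Yes1 is 0.82, 0.47 and 0.85 and Prkca 0.24, 0.11 and -0.57 in that order.

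The rest of the pathway was read through 10 lists with 105 genes in all, of which 104 were tested. Of these, 0 were called by edgeR and 0 by DESeq2, 4 had an unadjusted p under 0.05 on the higher side and 7 on the lower side, and 54 were above 0. Over all tested genes 6.60% had an unadjusted p under 0.05 on the higher side and 2.99% on the lower side. The median log2 fold change of the 104 was 0.01. Among regulators and relatives of Src, 5 of 12 were above 0. The smallest p there was that of Blk, a family member of B cells, with 0, 5, 13 and 4 counts in Htr2b_cKO libraries, against 33 and 4 counts in control libraries (adjusted p = 0.62). Csk, the kinase that restrains the family, had 65.0 ± 4.1 CPM in Htr2b_cKO and 72.6 ± 12.4 CPM in control libraries (log2 fold change -0.16, adjusted p = 0.748). Of the adhesion substrates and adaptors, Ptk2b, a kinase related to the focal adhesion kinase, had 48.1, 45.9, 40.5 and 52.2 CPM in Htr2b_cKO libraries, against 56.9 and 65.6 CPM in control libraries (log2 fold change -0.39, adjusted p = 0.461). Ptk2, the focal adhesion kinase itself, had 56.4 ± 6.7 CPM in Htr2b_cKO and 49.1 ± 9.2 CPM in control libraries (adjusted p = 0.731).

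None of the RAS and RAF genes, MAP kinase kinase kinases and other MAP kinase kinases was called. Of these lists 6 of 12, 6 of 10 and 2 of 6 genes were above 0. Rasa1, an inhibitor of RAS, had 39.6, 44.2, 43.5 and 48.8 CPM in Htr2b_cKO libraries, against 23.5 and 31.4 CPM in control libraries (log2 fold change 0.68, SE 0.17, adjusted p = 0.326; 0.38 with the offsets for GC content and exon length). Map3k2, a MAP kinase kinase kinase, had 42.4, 33.2, 34.4 and 39.3 CPM in Htr2b_cKO libraries, against 20 and 25.1 CPM in control libraries (0.73, SE 0.17, adjusted p = 0.326; 0.24 with the offsets). Braf, which phosphorylates MEK, had 24.5 ± 3.5 CPM in Htr2b_cKO and 16.7 ± 3.0 CPM in control libraries (0.56, adjusted p = 0.427; 0.19 with the offsets). On the lower side, Mras, a RAS relative, was at -0.45 (adjusted p = 0.427; -0.34 with the offsets). Map2k3 and Map2k6 both activate p38. Map2k3 had 42.2 ± 2.6 CPM in Htr2b_cKO and 51.6 ± 3.0 CPM in control libraries (-0.29, adjusted p = 0.52; -0.12 with the offsets), and Map2k6 was at 0.37 (adjusted p = 0.699).

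Of 10 kinases downstream of MAP kinases, 5 had values above 0 and 5 had values under it, none was called, and the median was 0 on the log2 scale. The largest difference was that of Rps6ka5, a kinase activated by ERK and p38, at 0.92 (adjusted p = 0.51; 0.54 with the offsets). Among p38 targets Mapkapk2 had 125 ± 7 CPM in Htr2b_cKO and 159 ± 9 CPM in control libraries (-0.35, adjusted p = 0.449; -0.18 with the offsets), Mapkapk3 was at -0.37 (adjusted p = 0.475) and Mapkapk5 at 0.12 (adjusted p = 0.80). Of 12 feedback inhibitors and target genes of ERK, 9 were above 0, against 7918 of all 15840 tested genes, and 0 were called. The smallest p was that of Etv5, an ERK-induced transcription factor, with 17.7 ± 3.7 CPM in Htr2b_cKO and 25.1 ± 1.3 CPM in control libraries (-0.51, adjusted p = 0.475, and -0.38 with the offsets). Myc came next and went the other way, with 124 ± 40 CPM in Htr2b_cKO and 80.0 ± 13.6 CPM in control libraries (0.63, adjusted p = 0.571, and 0.81 with the offsets). Of 10 MAP kinase phosphatases 5 were above 0, and Dusp6, which removes phosphate from ERK, had 38.4 ± 3.8 CPM in Htr2b_cKO and 45.1 ± 5.6 CPM in control libraries (adjusted p = 0.65).

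The kinase genes with the most extreme fold changes were also those with the most extreme GC content. Yes1, at 41.1% GC, had the highest fold change, and Mapk3 (57.6%) and Src (59.3%) had the lowest ones, while the 6 genes from 45.8% to 52.5% GC lay between -0.11 and 0.24. Over the whole table, fold changes also moved with GC content. Among 1892 tested genes of under 42% GC the median log2 fold change was 0.39 and in 37.8% all Htr2b_cKO libraries lay above both controls, against 10.6% over all tested genes. Among 1510 genes of at least 58% GC the median was -0.16 and that share was 2.45%. The 4 pathway genes with an unadjusted p under 0.05 on the higher side (Braf, Rasa1, Map3k2 and Rps6ka5) had 39.4% to 42.7% GC, and the 7 on the lower side (Ptk2b, Rras, Mras, Map2k3, Etv5, Mapkapk2 and Mapkapk3) had 51.8% to 58.1% GC. With offsets for GC content and exon length, 1 of the 4 and 0 of the 7 kept an unadjusted p under 0.05. They were picked by their p in the fit without offsets, so some loss in any other fit is expected. The offsets were also fitted to these same counts, so the numbers kept do not show what GC content contributes. In the other direction, the unadjusted edgeR p of Myc went from 0.072 to 0.0458 with the offsets. These values are across genes of the same 6 libraries, and genes are not independent replicates.

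**Figure D5:**
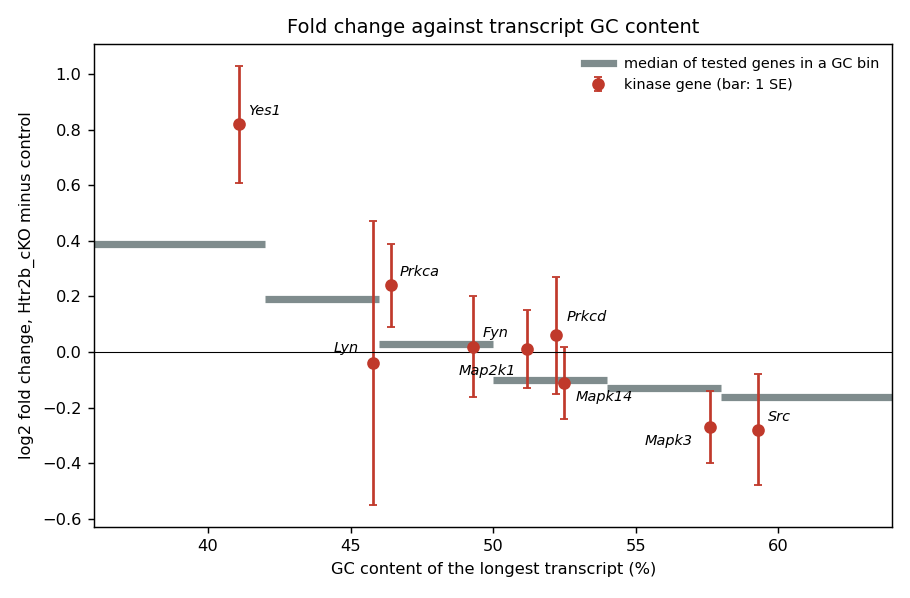
Log2 fold change (y axis, Htr2b_cKO minus control, bars 1 SE) of the 9 kinase genes against the GC content of the longest transcript (x axis, %), with the median of all tested genes in each of 6 GC bins in grey; the outer bins extend past the axis. Yes1 lies above the median of 0.39 of its bin, and Mapk3 and Src lie below the medians of theirs.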

How the data were processed

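Per the file headers, the deposited estimated counts are gene-level output of a transcript quantifier; they are whole numbers and were not normalized. The authors' normalized signal is the estimated count over a factor that differs by gene and by library. DRAGEN, DESeq2 and mm10 are named without roles or versions, per the submitters' processing notes. The library kit was directional, per the labels' protocols.

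All 42256 identifiers were found in a GENCODE annotation of the same build, which gave names, lengths and the GC content of the longest transcript. Of these genes 15840 passed filterByExpr. The main test was edgeR 4.0.16 in R 4.3.3 with TMM scaling, robust quasi-likelihood fits, two-sided tests and genotype as the only term. Genes were called at p under 0.05 after Benjamini-Hochberg adjustment. DESeq2 1.42.0 and limma 3.58.1 were among the alternatives. Fits were tested on simulated data. CPM values are given as mean ± SD. Each SE came from the fold change and the F statistic. Family ratios used exact permutation tests, whose smallest p is 0.0667. A count of 0 allows 3 counts, 0.0781 to 0.108 CPM, for counting error only. The labels do not say that libraries are separate animals, but the series design speaks of animals; otherwise p-values measure only the spread between these samples.

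The genes and lists were chosen with earlier results of these data known. Genes named in the text were the 9 kinases, Htr2b, the 2 of smallest p in each pathway list, 6 near relatives, the 2 most abundant markers of each list and the genes most alike in pattern; some of these are not reported here. Rras, Mras, Rps6ka5, Map2k6, Mapkapk5 and Cd3e lie outside this rule and were named after their values were seen. Mapk11, Mapk12 and Mapk13 enter through the family ratios and Gm11787 through shared sequence.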

Additional observations from a re-analysis of the deposited data

How the results depend on the processing

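The pair of control libraries limits the precision, and the 2 SE intervals were widest for Lyn, from -1.05 to 0.98. None of the 9 kinase genes and none of the 104 pathway genes was called under any of the 17 alternatives. The number of genes called over the whole table was 3, and it was 1 to 8 when each library was left out in turn, 5 without a filter on low counts, 8 with sex as a covariate, 15 with the macrophage marker level as a covariate, 5 without both Htr2b_cKO 3 and Htr2b_cKO 4 and 105 with DESeq2. The legacy dispersion of edgeR, chosen after seeing the data, gave 2. Leaving out each library in turn, the log2 fold change ranged from -0.07 to 0.11 for Fyn, -0.40 to 0.47 for Lyn, -0.05 to 0.20 for Prkcd and -0.04 to 0.09 for Map2k1, so those directions are not fixed, while Yes1 ranged from 0.65 to 1.01. With sex as a covariate Lyn was 0.19 and Map2k1 -0.04. Only Htr2b_cKO 4 was counted as male, so this fit repeated the one without that library. There the values were also 0.19 and -0.04, so the fit with sex is no separate check. With the macrophage level Map2k1 was 0. With the GC content and exon length offsets Mapk14 was 0.02, and with the authors' factors Prkca was -0.57; the cause was not tested. The log2 family ratios ranged from -0.61 to 0.54 for Lyn, -0.18 to 0.21 for Mapk14 and -0.07 to 0.50 for Prkca when each library was left out. The ratio of Mapk14 was -0.02 with the longest transcript's length, and that of Prkca -0.75 from the authors' normalized values. With the longest transcript's length the ranks by level were 3 for Prkcd, 5 for Src, 6 for Mapk14, 8 for Yes1 and 9 for Prkca. No paired analysis was possible because the labels give no replicate numbers that the genotypes share.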
